A study of Mus musculus with 9 samples.

Results

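The 9 genes described here belong to the amyloid and tau biology of Alzheimer disease: App, Psen2, Bace1, Adam10, Mapt, Apoe, Clu, Ide and Mme. They were chosen by name, from their known roles in making, cutting, carrying or degrading amyloid-β and in building tau, with earlier results of these arrays known. Each of the 9 symbols was found on the mouse array with exactly 1 transcript, out of 22206 transcripts measured in all. Clariom S Mouse arrays were hybridized with RNA of 9 samples from male mice aged 6 months, 3 samples in each of 3 groups. SAMP8 TFQA mice, of the senescence-accelerated prone strain SAMP8, received TFQA (3,4,5-tri-feruloylquinic acid, a synthetic ester of quinic acid and ferulic acid) by mouth at 1 mg/kg for 37 days. SAMP8 water mice were of the same strain and were given water, and SAMR1 water mice, of the senescence-resistant strain used as the control of SAMP8, were given water too. SAMP8 and SAMR1 are separate inbred strains, so that a difference between them is one of strain and is not tied to a single gene, and no SAMR1 mice received TFQA.

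Amyloid-β is cut out of the amyloid precursor protein, which App encodes. β-secretase (Bace1) makes the first cut on the amyloid-forming route, and γ-secretase, whose catalytic subunit is a presenilin such as Psen2, releases the peptide. Adam10, the main α-secretase of neurons, cuts within the amyloid-β stretch instead and so precludes its release. Apoe and Clu encode lipid-carrying proteins, made largely by astrocytes in the brain, that bind amyloid-β and influence how it is cleared. Ide (insulin-degrading enzyme) and Mme (neprilysin) encode metalloproteases that break the peptide down. Mapt encodes tau, an axonal microtubule-binding protein that, when heavily phosphorylated, forms the tangles of Alzheimer disease. SAMP8 mice are widely used as a model of age-related memory loss, and the arrays bear on whether transcripts of these genes differ with the strain or after TFQA.

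The paper names the tissue as hippocampus, while the labels give brain and neural stem cells. Of 10 general neuronal markers all 10 lay above the median signal of every array, as did all 6 measured of 8 listed hippocampal neuron markers and all 10 astrocyte markers, and 4 of 8 measured neural stem and progenitor cell markers. These counts set different probes against 1 level and do not decide between the named tissues. Values are log2 signals, on which a difference of 1 is a doubling, and the signal of one transcript cannot be set against that of another. SAMP8 TFQA replicate 2 stood apart in markers of striatal neurons, whose mean over 10 measured genes was 11.55 there, against 8.18 and 8.26 in the other SAMP8 TFQA arrays, 7.80 to 8.29 in SAMP8 water and 7.79 to 9.11 in SAMR1 water. Results that rest on that array are therefore also given without it. In whole tissue, fewer cells of a type and less RNA per cell cannot be told apart.

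The 3 comparisons were tested for each gene with limma, which fitted the 3 groups together and adjusted p-values over all 22206 transcripts. A gene is said here to have passed the adjusted test at an adjusted p under 0.05, and to have passed the study's threshold where its fold change exceeded 1.1 and its unadjusted p lay below 0.05. None of the 9 genes passed the adjusted test in any comparison. In SAMP8 TFQA vs. SAMP8 water the adjusted p ranged from 0.712 to 0.997, and 0% of all transcripts passed. In SAMP8 water vs. SAMR1 water it ranged from 0.648 to 0.996, against 0.509% of all transcripts that passed, and in SAMP8 TFQA vs. SAMR1 water from 0.524 to 0.977, against 0.576%. At the study's threshold, 0 of the 9 genes were called in SAMP8 TFQA vs. SAMP8 water, where 7.12% of all transcripts were. Only Ide was called in SAMP8 water vs. SAMR1 water (background 6.09%), and only Psen2 in SAMP8 TFQA vs. SAMR1 water (background 8.06%), 1 of 9 genes in each. The arrays of both groups did not overlap for Psen2 in SAMP8 TFQA vs. SAMP8 water, for Ide and Mapt in SAMP8 water vs. SAMR1 water, and for Psen2 in SAMP8 TFQA vs. SAMR1 water. That is 11.1%, 22.2% and 11.1% of the 9 genes, against 11.8%, 11.8% and 12.3% of all transcripts. The median log2 fold change of the 9 genes was 0.11, -0.09 and -0.04 in these 3 comparisons, and that of all transcripts 0.01, -0.01 and -0.01. Neither the labels nor the paper say if each array holds RNA of another mouse, and the p-values therefore cover only how far these 9 samples spread, part of which may be technical.

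**Figure D1:**
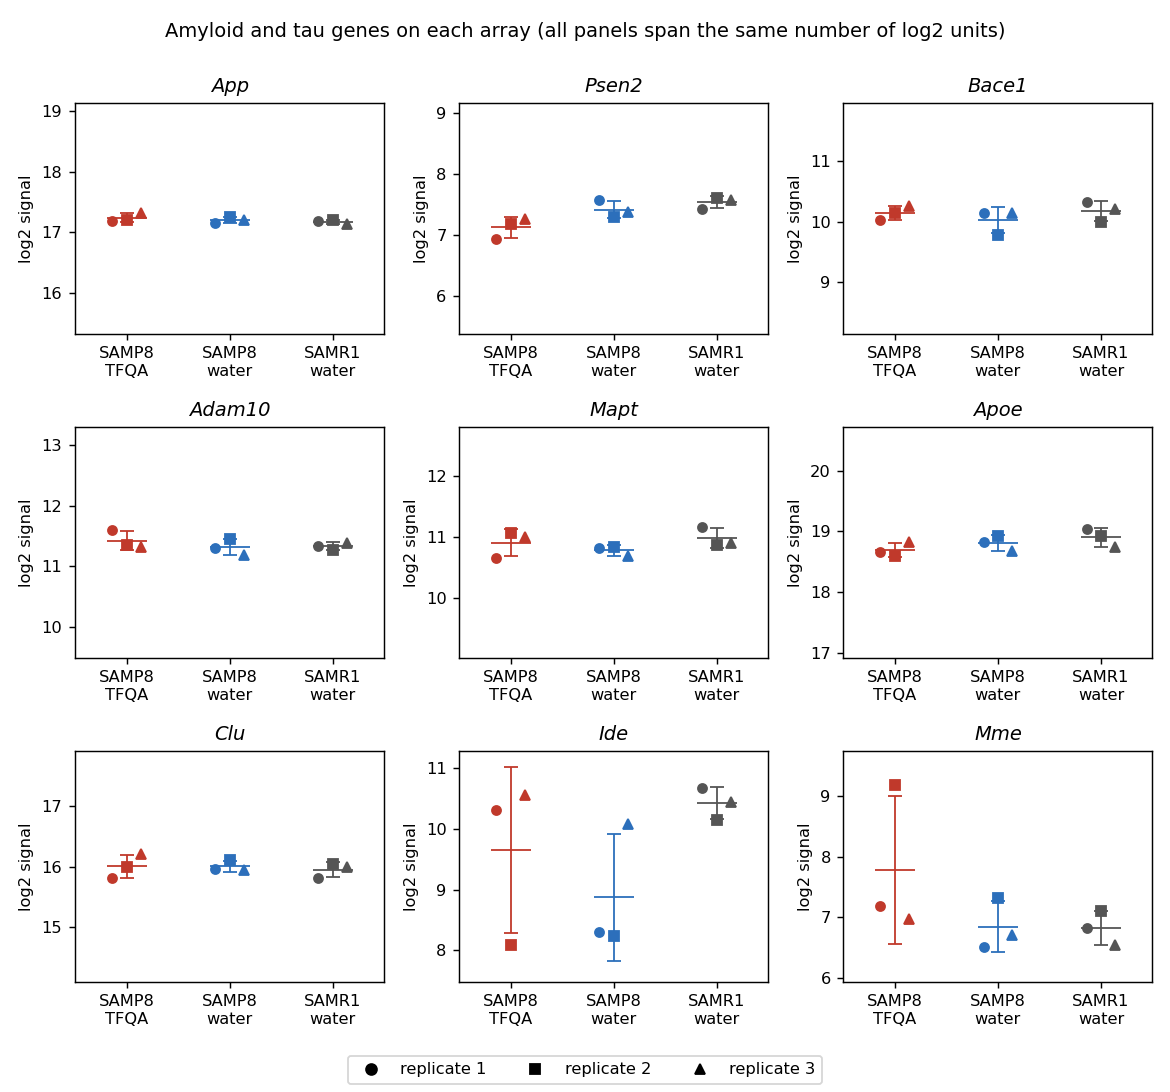
Log2 signal of the 9 genes on every array, with 1 panel per gene spanning the same number of log2 units; points are arrays, with the marker shape giving the replicate number, and lines give the group mean and SD (n = 3 arrays). App stays within 0.18 log2 units over all 9 arrays, whereas Ide spans 2.59 units and Mme 2.66.

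**Figure D2:**
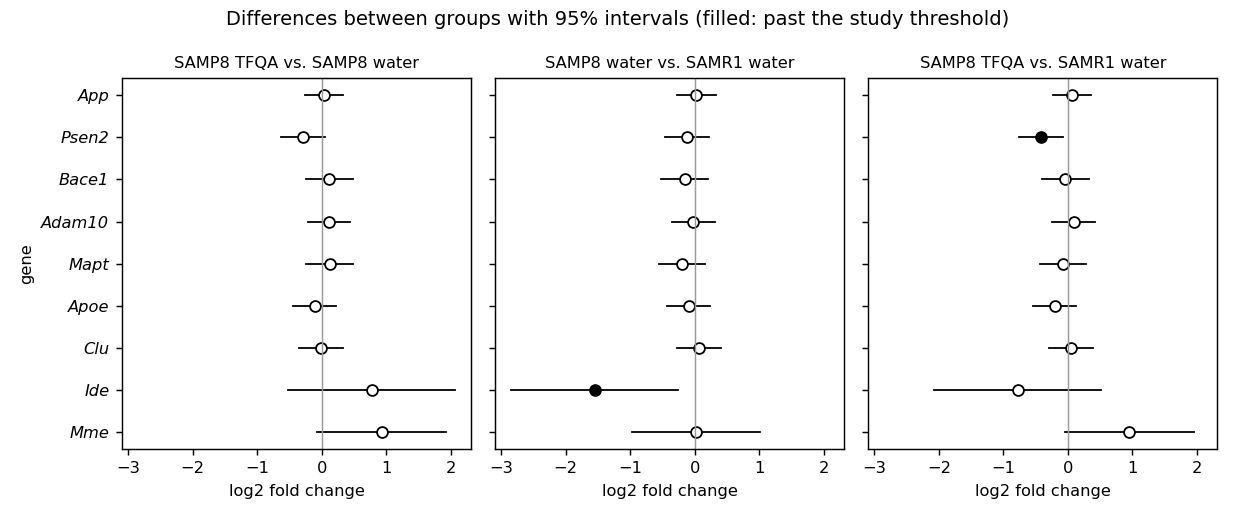
Log2 fold change of each gene (points) with its 95% confidence interval from limma (bars) in the 3 comparisons, where filled points passed the study's threshold. Only Ide in SAMP8 water vs. SAMR1 water and Psen2 in SAMP8 TFQA vs. SAMR1 water are filled, and the intervals of Ide and Mme are the widest of the 9.

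App, on chromosome 16 (chr16:84952666-85175255, GRCm38.p6), was the steadiest of the 9 genes. It read 17.18, 17.21 and 17.32 in SAMP8 TFQA, 17.15, 17.25 and 17.20 in SAMP8 water and 17.18, 17.20 and 17.14 in SAMR1 water. The whole range of the 9 arrays was 0.18 log2 units, and 99.7% of all transcripts had a larger SD within groups. Its log2 fold change was 0.04 in SAMP8 TFQA vs. SAMP8 water (standard error 0.14, adjusted p = 0.975), with a 95% interval for the fold of 0.834 to 1.26. In SAMP8 water vs. SAMR1 water it was 0.03, with an interval for the fold of 0.828 to 1.25, and in SAMP8 TFQA vs. SAMR1 water 0.06, with an interval of 0.850 to 1.28. The 3 intervals are the narrowest of the 9 genes, and all include no change.

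Bace1, the β-secretase gene (chr9:45838545-45862484), read 10.03, 10.15 and 10.25 in SAMP8 TFQA, 10.15, 9.78 and 10.14 in SAMP8 water and 10.33, 10.00 and 10.21 in SAMR1 water. SAMP8 water replicate 2 was the lowest array, and the 3 groups overlapped. Bace1 had a log2 fold change (FC) of 0.12 in SAMP8 TFQA vs. SAMP8 water (standard error 0.16, adjusted p = 0.898), with an interval for the fold of 0.847 to 1.39. It was -0.16 in SAMP8 water vs. SAMR1 water, with an interval for the fold of 0.700 to 1.15.

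Adam10, the α-secretase gene (chr9:70678944-70780229), read 11.60, 11.35 and 11.32 in SAMP8 TFQA, 11.30, 11.45 and 11.19 in SAMP8 water and 11.34, 11.27 and 11.39 in SAMR1 water. SAMP8 TFQA replicate 1 was the highest array and the groups overlapped. The difference between SAMP8 TFQA and SAMP8 water was 0.11 on the log2 scale (adjusted p = 0.898, standard error 0.15), and that between SAMP8 water and SAMR1 water -0.02. Both intervals for the fold, 0.860 to 1.36 and 0.786 to 1.24, include no change. The α- and β-secretase genes therefore had differences of the same size after TFQA, each smaller than its standard error.

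Psen2, a catalytic subunit of γ-secretase (chr1:180227004-180263467), was lower in SAMP8 TFQA than in either other group without overlap. It read 6.93, 7.17 and 7.26 in SAMP8 TFQA, 7.57, 7.29 and 7.38 in SAMP8 water and 7.42, 7.61 and 7.58 in SAMR1 water. Every SAMP8 TFQA array lay below every water array, while the 2 water groups overlapped. Psen2 differed by -0.29 on the log2 scale in SAMP8 TFQA vs. SAMP8 water (standard error 0.16, adjusted p = 0.727) and did not pass the study's threshold. Against SAMR1 water it was -0.42 (standard error 0.16, adjusted p = 0.524), past the study's threshold, with an interval for the fold of 0.592 to 0.949. The call was lost without SAMP8 TFQA replicate 1 (-0.32), without SAMR1 water replicate 2 (-0.38) and without SAMR1 water replicate 3 (-0.395). In SAMP8 water vs. SAMR1 water the difference was -0.12, with an interval for the fold of 0.725 to 1.16. All 3 comparisons share arrays, so that the low SAMP8 TFQA values enter 2 of them.

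Over the 9 arrays, the pattern of Psen2 was most like that of Vkorc1, an enzyme of vitamin K recycling (Pearson's r 0.95, Spearman's rho 0.93), of Ncdn, which encodes neurochondrin (0.94 and 0.88), and of the keratin gene Krt25 (0.93 and 0.90). These correlations describe 9 arrays that share groups and processing. The mean of the 6 hippocampal neuron markers was also lower after TFQA, at 10.31 to 10.85 in SAMP8 TFQA and 10.92 to 11.16 in SAMP8 water. In SAMR1 water it was 10.58 to 10.90. The lowest value, 10.31, was that of SAMP8 TFQA replicate 2, the array with high striatal markers. Replicates 1 and 3 of that group were at 10.85 and 10.63. Psen2 was lowest on replicate 1, where this mean was the highest of the group. The difference in this mean rested mainly on Spink8 (-1.003) and Fibcd1 (-0.91), both past the study's threshold in SAMP8 TFQA vs. SAMP8 water. Prox1 (-0.49, without overlap), Neurod6 (-0.26), Neurod2 (-0.10) and Wfs1 (-0.07) were lower too but did not pass it. Spink8 also differed by 1.87 in SAMP8 water vs. SAMR1 water. The mean of the 10 general neuronal markers did not run this way, at 13.73 to 13.93 in SAMP8 TFQA, 13.67 to 13.81 in SAMP8 water and 13.80 to 13.99 in SAMR1 water. The 13.93 was SAMP8 TFQA replicate 2, and replicates 1 and 3, at 13.73 and 13.79, lay within the range of SAMP8 water. The mean of 8 endothelial markers ran the other way, at 8.76 to 8.85 in SAMP8 TFQA, 8.48 to 8.60 in SAMP8 water and 7.86 to 8.08 in SAMR1 water. In SAMP8 water vs. SAMR1 water it rested mainly on Abcb1a (2.86), Slco1a4 (0.77) and Ly6c1 (0.52). The other genes ran from -0.11 (Tek) to 0.20 (Pecam1). In SAMP8 TFQA vs. SAMP8 water Abcb1a (0.62) and Ly6c1 (0.57) passed the study's threshold, and the others ran from -0.02 (Slco1a4) to 0.34 (Tek). The part of these marker lists in the values of Psen2 was not tested.

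Among the lipid carriers, Apoe (chr7:19696244-19701310) read 18.66, 18.60 and 18.83 in SAMP8 TFQA, 18.82, 18.93 and 18.67 in SAMP8 water and 19.04, 18.92 and 18.74 in SAMR1 water. The group means ran upward in that order, 18.70 ± 0.12, 18.81 ± 0.13 and 18.90 ± 0.15 (SD, n = 3 each), but the groups overlapped. Apoe lay close to the highest value of the whole table, 19.90, and whether its signal was compressed there was not tested. Apoe differed by -0.11 log2 units in SAMP8 TFQA vs. SAMP8 water (standard error 0.15, adjusted p = 0.902) and -0.20 in SAMP8 TFQA vs. SAMR1 water (adjusted p = 0.784). Clu (chr14:65968483-65981548) read 15.81, 16.00 and 16.20 in SAMP8 TFQA, 15.96, 16.11 and 15.95 in SAMP8 water and 15.81, 16.04 and 15.99 in SAMR1 water. Its differences were -0.003, 0.06 and 0.06 in the 3 comparisons, all within the spread of the arrays, with an interval for the fold of 0.788 to 1.26 for SAMP8 TFQA vs. SAMP8 water. The 10 markers of astrocytes, the main cells that make both proteins, averaged 12.36 to 12.51 in SAMP8 TFQA, 12.44 to 12.64 in SAMP8 water and 12.12 to 12.48 in SAMR1 water. Only Gfap passed the study's threshold, at 0.94 in SAMP8 water vs. SAMR1 water and 0.67 in SAMP8 TFQA vs. SAMR1 water. In SAMP8 water vs. SAMR1 water the other markers ran from -0.06 (Aldoc) to 0.34 (Aqp4). The part of these markers in the values of Apoe and Clu was not tested.

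Ide, the insulin-degrading enzyme gene (chr19:37268743-37334544), had the largest difference between the strains among the 9 genes, and it came from separate high and low arrays and not from a shift of a whole group. It read 10.31, 8.09 and 10.56 in SAMP8 TFQA, 8.31, 8.23 and 10.08 in SAMP8 water and 10.68, 10.15 and 10.45 in SAMR1 water. SAMP8 TFQA replicate 2 and SAMP8 water replicates 1 and 2 lay between 8.09 and 8.31, the other 6 arrays lay between 10.08 and 10.68, and no array fell in between. All SAMP8 water arrays were below all SAMR1 water arrays, the highest of them, replicate 3, only just. The log2 fold change was -1.55 in SAMP8 water vs. SAMR1 water (standard error 0.59, adjusted p = 0.648), with an interval for the fold of 0.139 to 0.836, and passed the study's threshold. This call was lost without SAMP8 water replicate 1 (-1.27), without SAMP8 water replicate 2 (-1.23) and without SAMR1 water replicate 1 (-1.43), and the value was -2.16 without SAMP8 water replicate 3.

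After TFQA, Ide was 0.78 log2 units above SAMP8 water (standard error 0.59, adjusted p = 0.807), a difference that did not pass, with an interval for the fold of 0.700 to 4.21. Without SAMP8 TFQA replicate 2, the array with high striatal markers, it was 1.56, and without SAMP8 water replicate 3 it was 1.38, both past the study's threshold. It was 0.50 and 0.46 without SAMP8 water replicates 1 and 2, and 0.45 and 0.33 without SAMP8 TFQA replicates 1 and 3. Which array is counted therefore set the size of the difference and the call. Against SAMR1 water the difference of SAMP8 TFQA was -0.77, and 0.008 without SAMP8 TFQA replicate 2. Only 24 of the 22206 transcripts, 0.11%, had a larger SD within groups than Ide.

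The genes beside Ide on chromosome 19 were set beside it array by array. Marchf5, a mitochondrial ubiquitin ligase gene 44.3 kb away, read 10.31, 10.42 and 10.40 in SAMP8 TFQA, 10.52, 10.41 and 10.29 in SAMP8 water and 10.77, 10.25 and 10.43 in SAMR1 water. Kif11, a mitotic kinesin gene 41.8 kb away on the other side, read 5.52, 5.67 and 5.45, then 5.38, 5.98 and 5.18, and 5.42, 5.29 and 6.08 in the same order. Cpeb3, an RNA-binding translation regulator 61.1 kb away, read 7.77, 7.82 and 7.54 in SAMP8 TFQA, 7.82, 7.79 and 7.44 in SAMP8 water and 7.80, 7.75 and 8.04 in SAMR1 water. Btaf1, which encodes a TATA-binding protein-associated factor and lies farther away (255 kb), read 9.44, 9.22 and 8.92 in SAMP8 TFQA, 8.77, 8.70 and 8.90 in SAMP8 water and 9.17, 9.16 and 8.90 in SAMR1 water. Like Ide it was low on SAMP8 water replicates 1 and 2, but its value on SAMP8 TFQA replicate 2 was its second highest, and its whole range was 0.74 log2 units. Its difference of 0.40 in SAMP8 TFQA vs. SAMP8 water passed the study's threshold (adjusted p = 0.670). Hhex and Exoc6, the remaining genes among the 3 measured on either side, had ranges of 1.17 and 0.80 log2 units, against 2.59 for Ide. The genes most like Ide over the 9 arrays were Zfp449, a zinc finger gene (r 0.92, rho 0.65), Tcf3, a helix-loop-helix transcription factor gene (0.92 and 0.62), and Dcun1d3, a regulator of neddylation (0.91 and 0.67).

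**Figure D3:**
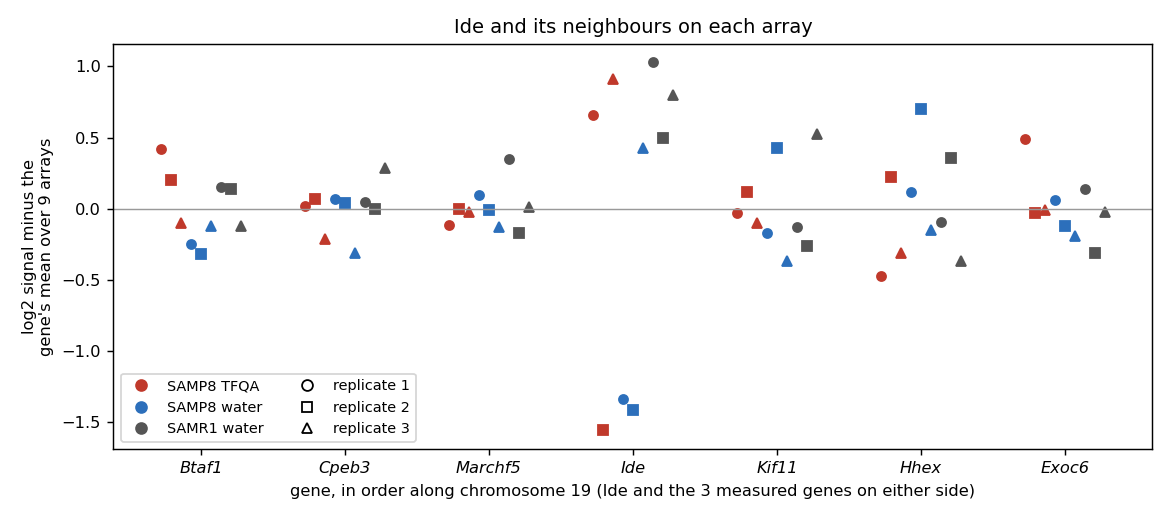
Log2 signal of Ide and of the 3 measured genes on either side of it on chromosome 19, each minus the mean of that gene over the 9 arrays; points are arrays, with colour for the group and shape for the replicate number. Ide lies more than 1 unit below its mean on SAMP8 TFQA replicate 2 and SAMP8 water replicates 1 and 2, where no neighbour does.

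Mme, the neprilysin gene (chr3:63295211-63383713), was high on 1 array. It read 7.19, 9.17 and 6.97 in SAMP8 TFQA, 6.51, 7.32 and 6.71 in SAMP8 water and 6.82, 7.10 and 6.55 in SAMR1 water. Apart from SAMP8 TFQA replicate 2 at 9.17, all arrays lay between 6.51 and 7.32, and the groups overlapped. Its log2 FC was 0.93 in SAMP8 TFQA vs. SAMP8 water (standard error 0.46, adjusted p = 0.712), with an interval for the fold of 0.955 to 3.80, and 0.95 in SAMP8 TFQA vs. SAMR1 water (adjusted p = 0.640). Without SAMP8 TFQA replicate 2 these values were 0.23 and 0.26. In SAMP8 water vs. SAMR1 water the difference was 0.02, with an interval for the fold of 0.509 to 2.03.

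SAMP8 TFQA replicate 2, the array on which Mme was high, was also the one with high markers of striatal neurons. Of the 10 measured striatal markers, 9 were highest on it. Penk, the precursor of enkephalins, read 11.42, 17.22 and 11.88 in SAMP8 TFQA, 11.23, 12.08 and 11.13 in SAMP8 water and 10.66, 14.19 and 12.72 in SAMR1 water. Rgs9, a regulator of G protein signalling abundant in the striatum, read 14.45 on that array and 8.45 to 10.92 on the others. On SAMR1 water replicate 2, the array with the next highest striatal mean (9.11), Mme read 7.10. Sprr2g, Gpr6 and Tac1 were the genes most like Mme over the 9 arrays (r 0.98, 0.97 and 0.96, rho 0.88, 0.83 and 0.80), named after their values were seen, and Gpr6 and Tac1 are themselves on the striatal list. The part of striatal tissue in the value of Mme was not tested.

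**Figure D4:**
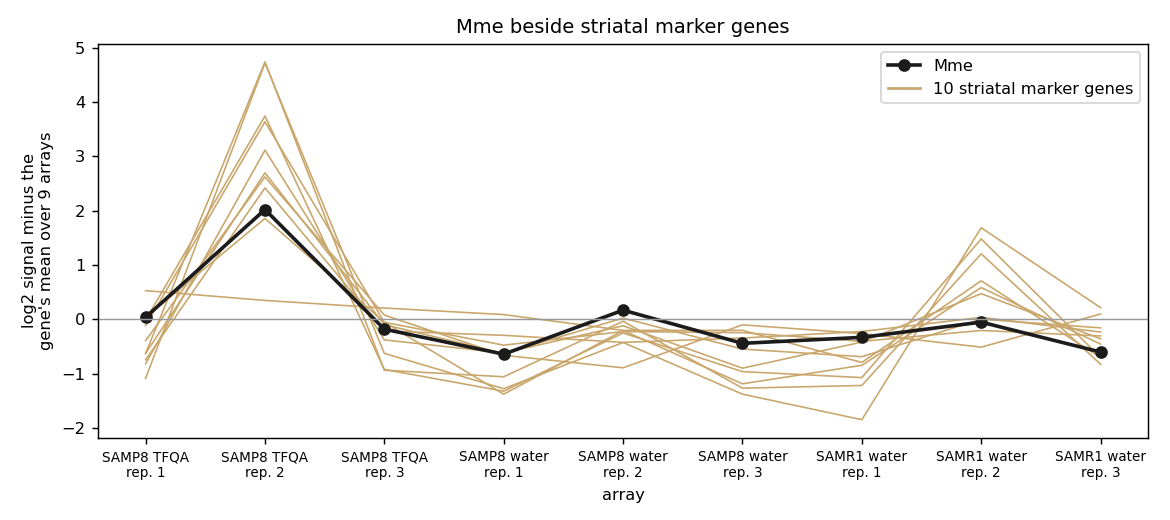
Log2 signal of Mme (black) and of the 10 measured striatal marker genes (tan) on each of the 9 arrays, each minus its mean over the arrays. Mme and 9 of the 10 markers peak on SAMP8 TFQA replicate 2.

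Mapt, the tau gene (chr11:104229409-104332090), read 10.65, 11.07 and 10.99 in SAMP8 TFQA, 10.82, 10.84 and 10.68 in SAMP8 water and 11.17, 10.87 and 10.90 in SAMR1 water. Each SAMP8 water array lay below each SAMR1 water array, though the closest pair was 10.84 against 10.87, and SAMP8 TFQA spanned both. The log2 FC of Mapt was -0.20 in SAMP8 water vs. SAMR1 water (standard error 0.16, adjusted p = 0.948), with an interval for the fold of 0.679 to 1.12, and 0.12 in SAMP8 TFQA vs. SAMP8 water (adjusted p = 0.893), with an interval of 0.849 to 1.40. Neither passed the study's threshold. The means of the 10 markers of neurons, the cells that make tau, are given beside Psen2.

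Start sites in the RefSeq gene set (GRCm38.p6) gave a 300-base window, from 250 bases before to 50 after the start, for 6 of the 9 genes. The windows of App, the steadiest gene, and of Ide and Mme, the most variable, are shown to place these genes on the genome. They are from the reference strain and were not read in SAMP8 or SAMR1. App lies on the minus strand (chr16:85173658-85173957), Ide on the minus strand (chr19:37334495-37334794) and Mme on the plus strand, with an outer start (chr3:63294961-63295260) and an inner one (chr3:63295622-63295921) among 3 windows. Capitals mark the motifs GGGCGG (the core of a GC box) and CCAAT in either orientation.
App: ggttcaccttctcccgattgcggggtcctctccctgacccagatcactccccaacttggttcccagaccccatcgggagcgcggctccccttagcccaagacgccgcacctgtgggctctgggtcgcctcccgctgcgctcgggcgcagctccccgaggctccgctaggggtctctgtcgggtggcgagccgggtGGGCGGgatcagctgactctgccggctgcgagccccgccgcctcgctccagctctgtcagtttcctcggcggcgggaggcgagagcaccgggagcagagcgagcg
Ide: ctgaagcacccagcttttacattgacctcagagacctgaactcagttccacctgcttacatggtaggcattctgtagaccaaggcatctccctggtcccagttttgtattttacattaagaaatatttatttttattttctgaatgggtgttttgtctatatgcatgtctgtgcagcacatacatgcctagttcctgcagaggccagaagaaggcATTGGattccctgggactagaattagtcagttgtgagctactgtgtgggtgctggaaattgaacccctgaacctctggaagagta
Mme outer start: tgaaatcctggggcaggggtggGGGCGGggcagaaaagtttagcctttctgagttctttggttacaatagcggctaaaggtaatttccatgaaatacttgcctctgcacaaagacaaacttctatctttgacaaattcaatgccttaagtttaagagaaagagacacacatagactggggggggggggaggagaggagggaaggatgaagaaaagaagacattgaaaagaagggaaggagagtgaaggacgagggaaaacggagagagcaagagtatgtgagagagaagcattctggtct
Mme inner start: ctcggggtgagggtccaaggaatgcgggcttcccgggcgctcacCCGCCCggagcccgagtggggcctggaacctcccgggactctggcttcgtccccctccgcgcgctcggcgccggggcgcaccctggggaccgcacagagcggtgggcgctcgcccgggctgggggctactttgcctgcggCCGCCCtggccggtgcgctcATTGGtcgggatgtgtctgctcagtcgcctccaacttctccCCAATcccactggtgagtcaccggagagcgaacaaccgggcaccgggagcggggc
The App window, which lies wholly inside the span given above for the gene, holds 30 CpG dinucleotides, 1 GGGCGG and 71.0% G and C. The Ide window, at the outermost annotated start, holds 0 CpG dinucleotides, 1 CCAAT and 44.0%. The App and Ide windows thus stand at unlike starts. The outer Mme window holds 4 CpG dinucleotides and the inner one 32, beside a median of 7 over 32851 windows of the same length. GGGCGG occurs in 35.7% of all those windows and CCAAT in 37.4%, so that a single match is common. Which start was in use was not measured by these arrays.

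Another 81 genes of the same biology were measured, of 90 on 8 lists. At the study's threshold 4 of the 81 were called in SAMP8 TFQA vs. SAMP8 water, 3 higher and 1 lower (4.94%, against 7.12% of all transcripts). In SAMP8 water vs. SAMR1 water 3 were called, 2 higher and 1 lower (3.70%, against 6.09%), and in SAMP8 TFQA vs. SAMR1 water 7, 3 higher and 4 lower (8.64%, against 8.06%). None of the 81 passed the adjusted test, the smallest adjusted p being 0.561, 0.539 and 0.252. Their median log2 fold change was 0.01, -0.07 and -0.05. The shares called were thus close to, or below, those of the array as a whole. Differences named below passed the study's threshold only.

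Of the genes that make and handle APP, 0 of 9 in the APP family and its adaptors were called in SAMP8 TFQA vs. SAMP8 water or in SAMP8 water vs. SAMR1 water. A single adaptor was called in SAMP8 TFQA vs. SAMR1 water, Apba2, an adaptor that binds the APP tail, at -0.50 (standard error 0.18, adjusted p = 0.477). It read 9.49, 9.46 and 9.67 in SAMP8 TFQA and 10.37, 9.82 and 9.94 in SAMR1 water, and the call was lost without SAMR1 water replicate 1 (-0.34). Among 8 other secretase genes, 1 was called, Aph1c, a γ-secretase subunit gene, at -0.36 in SAMP8 TFQA vs. SAMR1 water (adjusted p = 0.587). It read 7.54, 7.82 and 7.60 in SAMP8 TFQA, 7.51, 7.76 and 7.81 in SAMP8 water and 7.98, 8.01 and 8.04 in SAMR1 water, so that both SAMP8 groups lay below all SAMR1 water arrays. Leaving out any array of these groups except SAMP8 TFQA replicate 2 lost the call, with values of -0.30 to -0.37. Aph1c has a near-identical copy, Aph1b, which has its own transcript on the array. In SAMP8 TFQA vs. SAMP8 water Aph1b differed by -0.28 and Aph1c by -0.04. In SAMP8 water vs. SAMR1 water the values were 0.03 for Aph1b and -0.32 for Aph1c. Whether some probes read both genes was not tested. None of 12 genes of APP and APOE receptors, sorting and endocytosis was called in any comparison, and their differences in SAMP8 TFQA vs. SAMP8 water ran from -0.14 to 0.25.

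Of the 8 genes of lipidation and lipoproteins, 7 had lower means in SAMP8 TFQA than in SAMP8 water, with a median log2 fold change of -0.28, and 1 was called. In the same comparison 39 of all 81 genes were lower (median 0.01). So were 7 of 12 amyloid-degrading protease genes (-0.07) and 2 of 9 genes of tau phosphatases and chaperones (0.03). The lipid gene called was Lpl, lipoprotein lipase, which read 10.23, 10.45 and 9.42 in SAMP8 TFQA, 11.12, 10.60 and 10.65 in SAMP8 water and 11.11, 10.78 and 10.63 in SAMR1 water. Every SAMP8 TFQA array lay below every water array. Lpl differed by -0.76 log2 units in SAMP8 TFQA vs. SAMP8 water (standard error 0.26, adjusted p = 0.587) and -0.81 in SAMP8 TFQA vs. SAMR1 water (adjusted p = 0.389). The first was no longer past the threshold without SAMP8 TFQA replicate 3 (-0.45) or SAMP8 water replicate 1 (-0.59), and the second stayed past it without any 1 array. The part of the hippocampal neuron markers given beside Psen2 was not tested here either.

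Apod and Apoc1, apolipoprotein genes, were the 2 of these 8 called between the strains. Apod read 14.48, 14.07 and 14.50 in SAMP8 TFQA, 14.16, 14.66 and 13.56 in SAMP8 water and 12.91, 13.90 and 12.85 in SAMR1 water. SAMR1 water replicate 2 overlapped SAMP8 water, and the log2 fold change was 0.91 in SAMP8 water vs. SAMR1 water (standard error 0.31, adjusted p = 0.539), lost without SAMP8 water replicate 2 (0.64) or SAMR1 water replicate 1 (0.75) or 3 (0.72). Between SAMP8 TFQA and SAMR1 water it was 1.13 (adjusted p = 0.252) without overlap. Markers of meningeal fibroblasts, cells that also express Apod, averaged 8.21 to 9.08 in SAMP8 TFQA, 8.46 to 9.21 in SAMP8 water and 7.57 to 7.81 in SAMR1 water over 10 genes. Markers of oligodendrocytes did not run this way over 9 genes. They averaged 10.95 to 11.50 in SAMP8 TFQA, 10.90 to 11.50 in SAMP8 water and 10.99 to 12.11 in SAMR1 water, highest on SAMR1 water replicate 2. The part of either list in the values of Apod was not tested. Apoc1 read 5.15, 4.37 and 5.60 in SAMP8 TFQA, 5.41, 5.47 and 5.79 in SAMP8 water and 4.80, 5.01 and 4.69 in SAMR1 water. Its log2 fold change was 0.72 in SAMP8 water vs. SAMR1 water (standard error 0.26, adjusted p = 0.576), and the call was lost without SAMP8 water replicate 3 (0.61) or SAMR1 water replicate 3 (0.65). None of 12 other amyloid-degrading protease genes was called in any comparison.

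On the tau side, 1 of 15 kinase genes was called in SAMP8 TFQA vs. SAMP8 water. Mark1, which encodes a kinase that phosphorylates tau in its microtubule-binding repeats, read 11.20, 11.44 and 10.76 in SAMP8 TFQA, 10.47, 10.70 and 10.34 in SAMP8 water and 10.83, 10.88 and 11.03 in SAMR1 water. Every SAMP8 water array was below every array of the other groups. The log2 fold change was 0.63 in SAMP8 TFQA vs. SAMP8 water (standard error 0.19, adjusted p = 0.561) and stayed past the study's threshold when any 1 array was left out, at 0.48 to 0.82. It was -0.41 in SAMP8 water vs. SAMR1 water (adjusted p = 0.819), which did not pass. In that comparison 13 of the 15 kinase genes had lower means in SAMP8 water, with a median of -0.10, and 0 were called. The lean was not particular to kinases: 8 of 9 genes of the APP family and adaptors (median -0.14), 8 of 9 of tau phosphatases and chaperones (-0.12) and 53 of all 81 were lower too. Nor did every list share it: 6 of 8 lipidation and lipoprotein genes (0.17) and 5 of 8 secretase genes (0.03) were higher. Of the 12 amyloid-degrading protease genes 6 were higher and 6 lower (0.05). The median of all transcripts was -0.01.

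Of 9 genes of tau phosphatases and chaperones, Ppp2r2a and Ppp2r5d, regulatory subunits of protein phosphatase 2A, the main tau phosphatase, were called. Ppp2r2a read 13.28, 13.33 and 12.96 in SAMP8 TFQA, 12.60, 12.75 and 12.81 in SAMP8 water and 12.82, 12.82 and 12.76 in SAMR1 water. All SAMP8 TFQA arrays were above all water arrays. The log2 fold change was 0.47 in SAMP8 TFQA vs. SAMP8 water (standard error 0.15, adjusted p = 0.567), past the study's threshold when any 1 array was left out (0.40 to 0.585), and 0.39 in SAMP8 TFQA vs. SAMR1 water (adjusted p = 0.546), where the call was lost without SAMP8 TFQA replicate 1 (0.345) or 2 (0.32) or SAMR1 water replicate 3 (0.37). Ppp2r5d read 9.25, 9.43 and 9.35 in SAMP8 TFQA, 9.51, 9.47 and 9.28 in SAMP8 water and 9.96, 9.73 and 9.68 in SAMR1 water, with both SAMP8 groups below SAMR1 water. Its log2 fold change was -0.37 in SAMP8 water vs. SAMR1 water (adjusted p = 0.727), lost without SAMP8 water replicate 3 (-0.30) or SAMR1 water replicate 1 (-0.285), and -0.45 in SAMP8 TFQA vs. SAMR1 water (adjusted p = 0.450).

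Among 8 genes of other microtubule-associated proteins, Stmn1, which encodes the microtubule-destabilizing protein stathmin, was called after TFQA. It read 15.31, 15.83 and 15.66 in SAMP8 TFQA, 14.79, 15.43 and 14.84 in SAMP8 water and 14.83, 14.94 and 15.49 in SAMR1 water, and the groups overlapped. The log2 fold change was 0.58 in SAMP8 TFQA vs. SAMP8 water (standard error 0.23, adjusted p = 0.638) and 0.51 in SAMP8 TFQA vs. SAMR1 water (adjusted p = 0.613). Without SAMP8 TFQA replicate 2 these were 0.465 and 0.40, neither past the study's threshold. The first call was also lost without SAMP8 TFQA replicate 3 (0.55) or SAMP8 water replicate 1 (0.465) or 3 (0.49), and the second without SAMP8 TFQA replicate 3 (0.48), SAMP8 water replicate 3 (0.51) or SAMR1 water replicate 1 (0.385) or 2 (0.44).

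**Figure D5:**
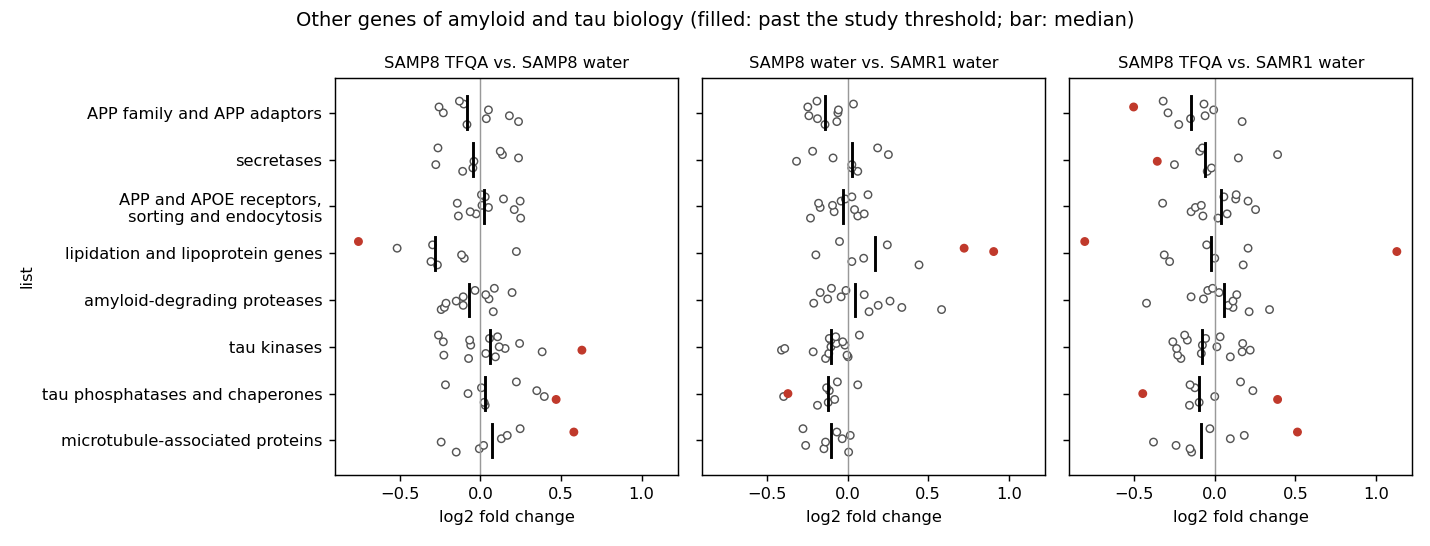
Log2 fold change of the 81 other genes of amyloid and tau biology (points), in 8 lists down the page and 3 comparisons across, with black bars for list medians and filled points for genes past the study's threshold. The filled points number 4, 3 and 7, and most genes lie within 0.5 log2 units of no difference.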

How the data were processed

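RNA of 9 samples was hybridized to Clariom S Mouse arrays. The deposited values are log2 signals that the authors obtained from the scanned arrays by SST-RMA normalization (Transcriptome Analysis Console software). The labels name RMA with mm10. Background correction and normalization between arrays had therefore been done, and values of different transcripts are not on a common scale. Symbols came from the platform annotation, and positions and start windows from RefSeq (GRCm38.p6).

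The 3 groups were fitted together with limma 3.58.1 (lmFit, eBayes) in R 4.3.3, without a filter. Benjamini-Hochberg adjustment covered all 22206 transcripts. The fit was tested on simulated data. Precision is limited by having 3 arrays a group: log2 fold changes had a median standard error of 0.19. Array correlations were 0.988 to 0.993. An exact permutation test of 3 arrays against 3 cannot go below p = 0.1 and was not used. Where a gene had several transcripts, the one with the highest mean was taken.

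Genes named were the 9 members, up to 4 genes past the study's threshold from each list, the 3 genes most correlated with a member past that threshold, and markers that move with a member. The neighbours of Ide, the genes most like Mme and the markers given one by one were chosen after their values were seen. Members and lists were chosen with earlier results of these data known. Alternatives were quantile normalization again, median centring, leaving out the 40% dimmest transcripts, trend and robust settings, one-way analysis of variance without moderation, 2 groups at a time, a replicate block, the mean of all transcripts of a gene, and leaving out each array.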

Additional observations from a re-analysis of the deposited data

How the results depend on the processing

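Of the differences of the 9 genes in 3 comparisons, 209 of 216 recomputed under alternatives that keep all arrays, and 214 of 243 recomputed without 1 array, kept their direction and their side of the study's threshold. Of the 14 calls among the 81 other genes, recomputed the same way, 105 of 111 and 99 of 126 did, and none reversed. These counts include recomputations that could not differ or could differ only in part. Each of the 9 genes has 1 transcript, so that taking the mean of all its transcripts changes nothing. Leaving out an array outside the 2 groups compared cannot change their log2 difference, only its p-value. Among all transcripts, leaving out the 40% dimmest gave 1029 past the study's threshold in SAMP8 TFQA vs. SAMP8 water in place of 1580, with fewer transcripts tested. Analysis of variance without moderation gave 40 in place of 113 transcripts at an adjusted p under 0.05 in SAMP8 water vs. SAMR1 water, and 53 in place of 128 in SAMP8 TFQA vs. SAMR1 water. The cause was not tested for these or the following.

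For the 9 genes, that test called 1 in SAMP8 TFQA vs. SAMP8 water (Psen2) in place of 0, and 0 in place of 1 in SAMP8 water vs. SAMR1 water, where trend and robust settings also called 0 (Ide was lost in both). For the 81 other genes in SAMP8 water vs. SAMR1 water, median centring called 5 and trend and robust settings 6 in place of 3. Clu in SAMP8 TFQA vs. SAMP8 water turned to 0.02 with median centring, and Adam10 in SAMP8 water vs. SAMR1 water to 0.0148 with quantile normalization again.

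Whether replicate numbers pair the arrays was not settled. The 9 same-numbered pairs had correlations of deviations of 1e-04 to 0.15, 1 of them over 0.1. Of the 9 arrays, 5 correlated best with an array of their own number, and how many would do so without pairing was not tested. With the replicate block 1 of the 9 genes was called in SAMP8 TFQA vs. SAMP8 water and 2 in SAMP8 TFQA vs. SAMR1 water, in place of 0 and 1, with Mme added in both, and 5 in place of 3 of the 81 in SAMP8 water vs. SAMR1 water.

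Leaving out 1 array gave 0 to 1, 0 to 1 and 0 to 2 of the 9 genes in the 3 comparisons, and 2 to 5, 2 to 6 and 4 to 8 of the 81. Without SAMP8 TFQA replicate 1 or 3, or SAMP8 water replicate 2, Mme passed the study's threshold in SAMP8 TFQA vs. SAMP8 water, at 1.22, 1.33 and 1.17, and without SAMP8 TFQA replicate 1 or 3 also in SAMP8 TFQA vs. SAMR1 water, at 1.25 and 1.36. Differences that turned sign without 1 array ranged from -0.005 to 0.065 for App, -0.0017 to 0.18 for Bace1 and -0.10 to 0.0933 for Clu after TFQA against SAMP8 water. Between SAMP8 water and SAMR1 water they ranged from -0.0883 to 0.0417 for Adam10, -0.0083 to 0.11 for Clu and -0.21 to 0.19 for Mme. For SAMP8 TFQA vs. SAMR1 water they ranged from -0.13 to 0.0383 for Bace1, -0.16 to 0.05 for Mapt, -0.0417 to 0.15 for Clu and -1.23 to 0.0083 for Ide.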
